A study of Mus musculus with 6 samples.

Results

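The amino acid transporter genes of the 266.6 line were described in cells kept in cancer-associated fibroblast conditioned medium (CAF_CM) and in control cells. The genes were selected by symbol alone, as all names of the solute carrier subfamilies Slc1a, Slc3a, Slc6a, Slc7a, Slc36a, Slc38a and Slc43a, which gave 46 of the 20596 genes with a symbol. No measured value entered that choice, but the family was taken up with results of this same comparison known, so its counts are a description and support no statement about the family as a whole. One of the 46, Slc7a6os, is named for its position opposite Slc7a6 and is not a carrier, which leaves 45 transporter genes. The 266.6 line is a mouse line of pancreatic acinar tumour cells. Per the labels, 3 libraries came from cells exposed to the conditioned medium for up to 40 days and 3 from the same line labelled as control. All cells were grown in DMEM HG with serum and antibiotics. What the conditioned medium held and how long control cells were cultured are not stated in the labels, so an effect of the medium and one of culture time cannot be told apart. The cells are 1 established line, and whether replicates were separate cultures is not stated. P-values therefore cover only the spread among these libraries, which could be technical. In such bulk libraries, fewer cells of a type and less RNA per cell cannot be told apart.

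Amino acids cross membranes mainly through carriers. Slc7a proteins of the light chain type work as pairs with a heavy chain, Slc3a2 or Slc3a1, which brings them to the cell surface, and most exchange 1 amino acid for another. Slc1a5 and the Slc38a carriers move glutamine and small neutral amino acids with sodium, Slc6a carriers move neurotransmitters, taurine, creatine and amino acids with sodium and chloride, and several Slc36a and Slc38a proteins sit in the lysosome, where they report amino acid supply to the growth regulator mTORC1. When amino acids run short, the kinase GCN2 raises the transcription factor ATF4, which induces a set of carriers together with enzymes of amino acid synthesis. Acinar cells of the pancreas make large amounts of secreted enzymes and depend on amino acid uptake.

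The values are read counts that the authors had divided by 1 factor per library, called normalized counts below. Each library held between 18622370 and 21002226 reads. Between libraries of the same group, the squared difference of read counts over that of counting error averaged 7.32 to 13.2 per gene among CAF_CM and 1.21 to 2.51 among control libraries, with the lowest value for control replicates 2 and 3. Among the tested transporter genes the median coefficient of variation was 9.02% over CAF_CM and 4.23% over control libraries. The fit gave both groups 1 shared variance per gene. All 8 acinar markers examined were in the table. Their summed level ranged from 33648 to 40147 normalized counts in CAF_CM and from 65093 to 67611 in control libraries. Past the threshold were 5 of 8, all lower (62.5%, against 16.1% lower over all genes tested). Of these, Cela2a (8.30 in CAF_CM, 21.5 in control libraries) and Cel (9.53 and 19.9) lay near the filter of 10 normalized counts. Leaving out any 1 control library left 4 falls, and leaving out CAF_CM replicate 2 gave 4 falls and 1 rise. Most of the acinar sum was Ctrb1 (23668 in CAF_CM, 45083 in control libraries), and the 3 markers that did not pass, Ptf1a, Cpa1 and Bhlha15, had log2 fold changes of 0.15, 0.12 and 0.14. Of 12 fibroblast markers, 8 were in the table, with Col3a1, Lum, Fap and Dpt not among them. Their sum ranged from 3165 to 3649 normalized counts in CAF_CM and from 3515 to 3710 in control libraries, most of it from Pdgfrb. Of these, Col1a2 passed as higher (111 in CAF_CM, 78.4 in control libraries, adjusted p = 0.0299) and Dcn as lower (23.0 in CAF_CM, 43.9 in control libraries, adjusted p = 0.0130), while Col1a1 lay between 6.12 and 14.4 in all 6 libraries. The sums of the 5 ductal markers ranged from 666 to 742 normalized counts in CAF_CM and from 545 to 588 in control libraries. Those of the 2 islet markers found (16.1 to 28.4 against 16.7 to 28.9), of the 2 immune markers (59.7 to 99.7 against 88.6 to 105) and of the 2 endothelial markers (22.5 to 24.7 against 18.8 to 30.6) overlapped between the groups. The part of the acinar, ductal and fibroblast markers' change in the results on the transporters was not tested.

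Of the 46 genes, 37 had a level of at least 10 normalized counts in at least 3 libraries and were tested, in 1 limma fit with all 16169 such genes and Benjamini-Hochberg adjustment over all of them. At an adjusted p under 0.05, 4 transporter genes rose in CAF_CM libraries (Slc7a1, Slc7a11, Slc7a5 and Slc38a1) and 15 genes fell, 14 of them transporters. Over all genes tested, 18.3% were higher and 16.1% were lower by the same rule. The share of the 37 was 10.8% higher and 40.5% lower. The median log2 fold change was -0.11 over the 37 and 0.0046 over all genes tested. Scaled by library totals alone, all genes split into 2231 higher and 3179 lower in place of 2953 and 2602, and of the 37 genes 1 was higher. The groups did not overlap in 22 of the 37 genes (59.5%), against 47.7% of all genes tested, and 18 of these 22 were lower in every CAF_CM library. The rises were small, from 1.119-fold to 1.40-fold, and the falls ran from 1.21-fold to 2.28-fold.

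**Figure D1:**
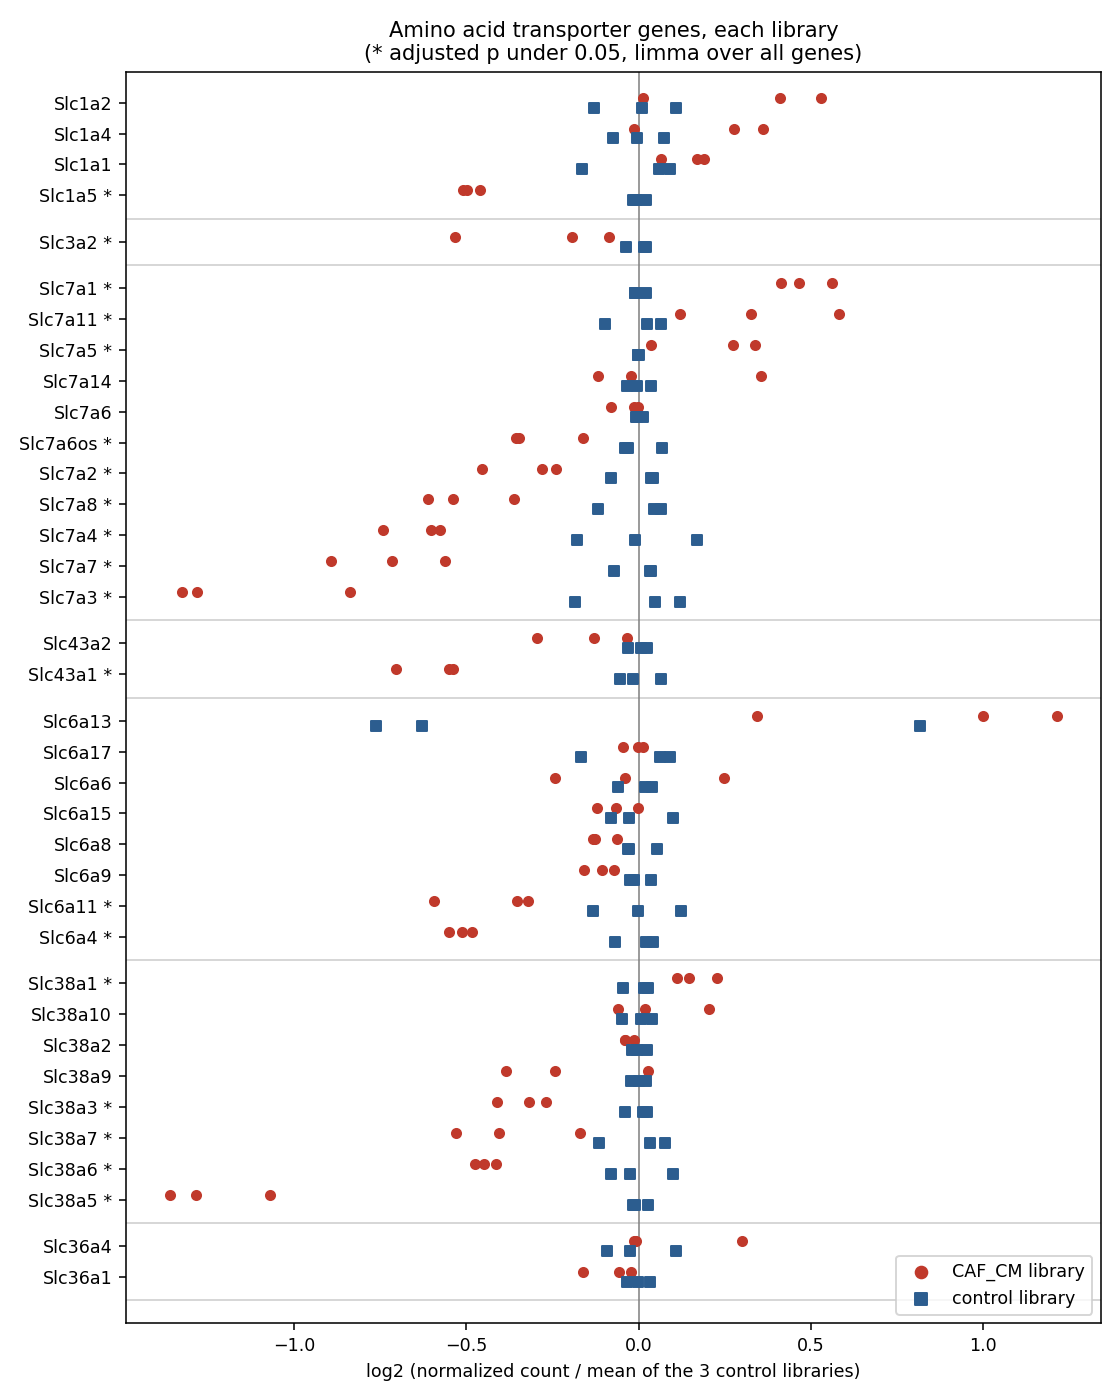
Level of 36 of the 37 tested genes in every library, as log2 of the normalized count over the mean of the 3 control libraries, with CAF_CM libraries as circles above the control libraries as squares and genes ordered by subfamily. In Slc1a5, Slc7a1, Slc6a4 and Slc38a6 the 3 CAF_CM points lie close together and away from the control points, while in Slc6a6, Slc7a14, Slc7a11 and Slc3a2 they spread widely.

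The summed counts of the genes are given as a description. Summed over the 45 transporter genes, the level was 57146 ± 1274 normalized counts in CAF_CM and 57068 ± 457 in control libraries (SD, n = 3 libraries in each group, as for every mean below). Per kb of transcript, the same sum was 11489 in CAF_CM and 11939 in control libraries. The genes with a higher mean in CAF_CM, 17 in number, added 3716 normalized counts, and the 28 with a lower mean changed the sum by -3638. Slc7a1 alone added 1459, Slc38a1 884 and Slc7a5 649 normalized counts, and the largest losses were those of Slc38a3 (-983), Slc3a2 (-519) and Slc1a5 (-409). By subfamily, the sum of Slc7a was 17530 ± 439 normalized counts in CAF_CM and 15696 ± 189 in control libraries, that of Slc38a 25695 ± 618 and 26133 ± 159, that of Slc1a 1968 ± 71.1 and 2232 ± 28.6, and that of Slc43a 1062 ± 83.6 and 1211 ± 13.1, each CAF_CM first. The Slc6a carriers summed to 6197 ± 439.6 and 6556 ± 221, the Slc36a carriers to 2057 ± 129 and 2081 ± 38.7. A sum over genes follows its most abundant members, so these figures say little about the rare carriers.

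Per kilobase of transcript, the scale on which genes can be compared with each other, 5 genes held 52.9% of the family's level: the glutamine carriers Slc38a2 (1523 normalized counts per kb over all 6 libraries), Slc38a3 (1368) and Slc38a1 (1082), the large neutral amino acid carrier Slc7a5 (1199) and the heavy chain Slc3a2 (1029). The 4 genes that rose had a median of 848 normalized counts per kb, with Slc7a11 far below the others at 41.5, and the 14 transporters that fell had a median of 82.6, between 10.7 for Slc7a3 and 1368 for Slc38a3. In each of the other subfamilies the highest member per kb was Slc1a5 (433), Slc36a1 (254), Slc43a2 (144) and Slc6a6 (466). The rises thus included 3 abundant carriers, and most of the falls were those of carriers of middle or low level. Slc38a3 and Slc3a2, both among the 5 highest genes, also fell. The medians were not set against that of all tested transporters.

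**Figure D2:**
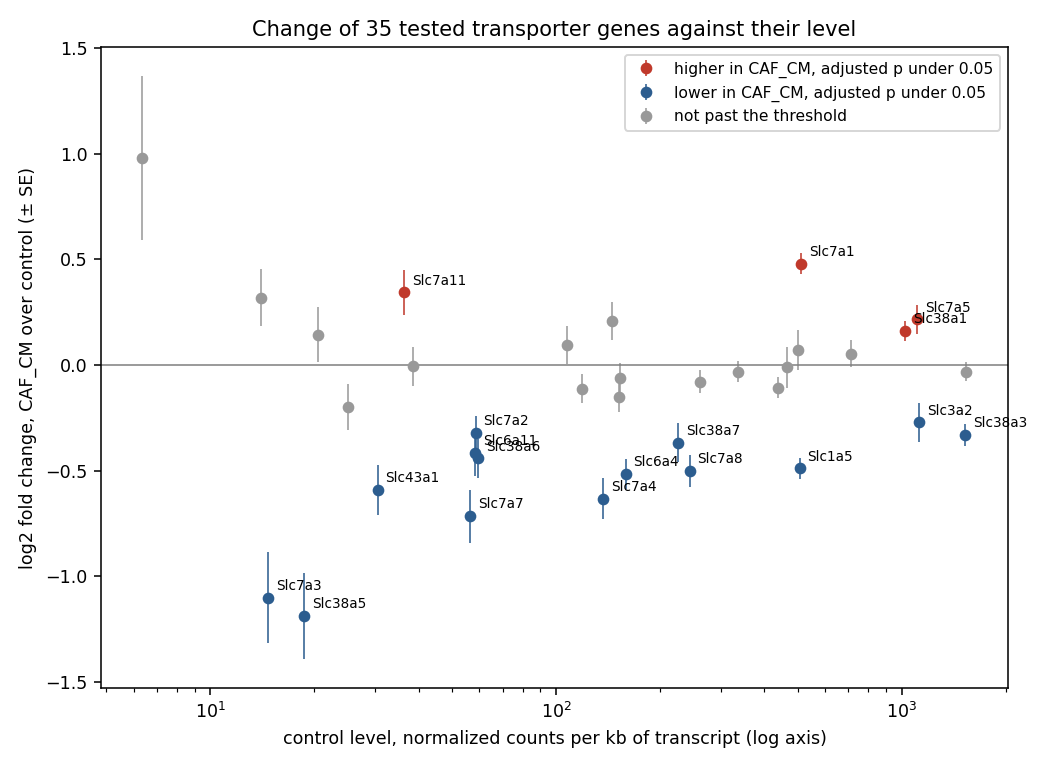
Log2 fold change of CAF_CM over control (± SE, vertical axis) of all but 1 of the 36 tested transporter genes against their level in control libraries, in normalized counts per kb of transcript on a log axis. Slc7a5, Slc38a1 and Slc7a1 stand to the right above 0, Slc7a11 to the left above 0, and the 2 largest falls, Slc38a5 and Slc7a3, are at low levels.

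The cationic carriers, which import arginine and lysine, moved apart. Slc7a1, the ubiquitous member, had 4902, 5079 and 5433 normalized counts in CAF_CM libraries, against 3655, 3651 and 3731 in control libraries. It was high in every CAF_CM library, with no overlap, and rose 1.40-fold (log2 fold change 0.48, SE 0.05, adjusted p = 7.45e-05). It is the only member whose rise kept its call under every alternative run. Slc7a2, a carrier first known from liver and macrophages, fell to 338, 381 and 391.998 normalized counts in CAF_CM libraries, against 437, 474 and 476 in control libraries (log2 fold change -0.32, SE 0.08, adjusted p = 0.00912). Slc7a3, best known from brain, fell 2.14-fold, with 22.7, 16.6 and 16.1 normalized counts in CAF_CM and 35.6, 41.8 and 44.0 in control libraries (adjusted p = 0.00254). All CAF_CM libraries were below all control libraries for both genes. Slc7a1 made up 93.0% ± 0.210 of the summed counts of the 3 genes in CAF_CM and 88.0% ± 0.4995 in control libraries. Slc7a4 and Slc7a14 are relatives of these carriers whose substrates are less settled. Slc7a4 fell to 302, 296 and 269 normalized counts in CAF_CM libraries, against 506, 397 and 446 in control libraries (log2 fold change -0.63, SE 0.10, adjusted p = 5.68e-04). Slc7a14 had 4094, 5682 and 4373 in CAF_CM and 4345, 4429.7 and 4554 in control libraries (adjusted p = 0.606), with CAF_CM replicate 2 above all others.

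The heavy chain and its light chains did not move together. Slc3a2, the heavy chain also known as 4F2hc or CD98hc, fell to 2972, 2180.0 and 2757 normalized counts in CAF_CM libraries, against 3199.7, 3190.1 and 3075 in control libraries (log2 fold change -0.27, SE 0.09, adjusted p = 0.0389). CAF_CM replicate 2 was the lowest by far, and without it the log2 fold change was -0.14 (adjusted p = 0.0471). Slc7a5 (LAT1), its light chain for leucine and other large neutral amino acids, rose to 4921, 3995 and 4712 normalized counts in CAF_CM libraries, against 3891, 3896 and 3893 in control libraries (log2 fold change 0.22, SE 0.07, adjusted p = 0.0307). In CAF_CM replicate 2 it was barely above control, and the control libraries had an SD of 2.50 where counting error alone would give 62.4. The ratio of Slc7a5 to Slc3a2 counts was 1.66, 1.83 and 1.71 in CAF_CM libraries, against 1.22, 1.22 and 1.27 in control libraries. That ratio was higher in every CAF_CM library and highest in replicate 2, where both genes had their lowest CAF_CM counts. Slc7a11 (xCT), the light chain that imports cystine in exchange for glutamate, rose to 421, 365 and 503 normalized counts in CAF_CM libraries, against 352, 342 and 314 in control libraries (log2 fold change 0.34, SE 0.11, adjusted p = 0.0282).

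The other light chains fell or did not pass the test. Slc7a8 (LAT2), a second carrier of large and small neutral amino acids, fell 1.41-fold, with 685, 775 and 651 normalized counts in CAF_CM and 917, 1039.6 and 1027 in control libraries (adjusted p = 6.10e-04). Slc7a7 (y+LAT1), which exports arginine and lysine from epithelia, fell 1.64-fold, with 78.3, 87.2 and 69.3 normalized counts in CAF_CM and 122, 132 and 132 in control libraries (adjusted p = 0.00143). Every CAF_CM library was below every control library for both. Slc7a6 (y+LAT2), the related exchanger, had 1260.3, 1194 and 1250.0 normalized counts in CAF_CM and 1257, 1256 and 1273 in control libraries (log2 fold change -0.03, 95% interval -0.14 to 0.08, adjusted p = 0.668). The light chains of Slc3a2 (Slc7a5, Slc7a6, Slc7a7, Slc7a8, Slc7a10 and Slc7a11) summed to 6995 ± 507 normalized counts in CAF_CM and 6615 ± 66.5 in control libraries. Without Slc7a5 alone, the sum was 2452 ± 26.3 in CAF_CM and 2722 ± 64.4 in control libraries. Slc7a6os, which lies opposite Slc7a6, fell to 504 ± 39.1 normalized counts in CAF_CM, against 614 ± 25.95 in control libraries (adjusted p = 0.0107). The sources used here do not say whether counting used strand, and reads where the 2 genes overlap may then not be told apart.

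The calls on Slc7a5, Slc7a11, Slc38a1 and Slc3a2 were the weakest. The calls on Slc7a5, Slc7a11 and Slc38a1 were each lost without CAF_CM replicate 3, without control replicate 1, 2 or 3, and with library totals, which left 1 rise without CAF_CM replicate 3, 1 without control replicate 2, 1 without control replicate 3 and 2 without control replicate 1, where Slc6a13 joined Slc7a1. With 1 control library left out the log2 fold changes stayed at 0.22 for Slc7a5, at 0.30 to 0.38 for Slc7a11 and at 0.14 to 0.18 for Slc38a1. Without CAF_CM replicate 3 they were 0.19 for Slc7a5, 0.23 for Slc7a11 and 0.13 for Slc38a1. The adjusted p over all alternatives ran from 4.07e-04 to 0.107 for Slc7a5, from 0.00256 to 0.186 for Slc7a11, from 0.00220 to 0.667 for Slc38a1 and from 0.00111 to 0.133 for Slc3a2, whose call was lost in the same 4 cases of a library left out. Correcting for GC content and transcript length also ended the calls on Slc3a2 (log2 fold change -0.18), Slc7a11 (0.20) and Slc38a1 (0.03).

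**Figure D3:**
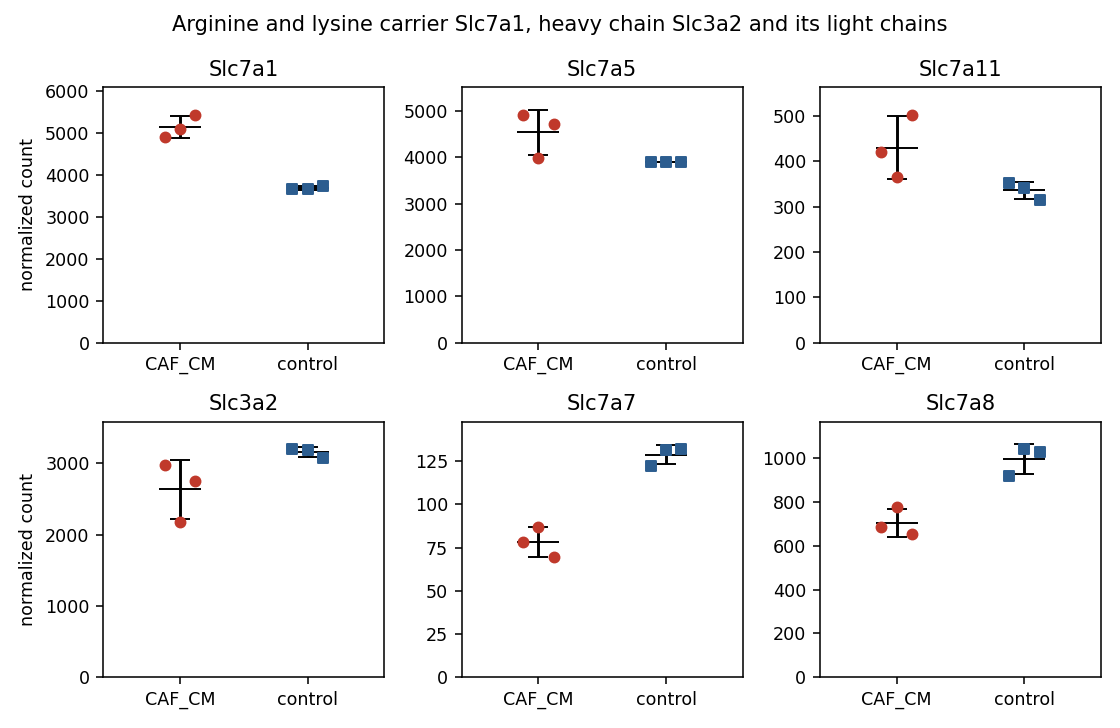
Normalized counts of Slc7a1, Slc3a2 and 4 light chains in each library (points, CAF_CM left and control right), with the mean and SD of 3 libraries as bars. Slc7a1 is higher in all CAF_CM libraries, Slc7a7 and Slc7a8 are lower in all of them, and CAF_CM replicate 2, the middle point, is the lowest of its group for Slc7a5, Slc7a11 and Slc3a2.

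Leucine also enters and leaves through Slc43a1 and Slc43a2 (LAT3 and LAT4), which need no heavy chain. Slc43a1 fell 1.51-fold, with 82.4, 73.5 and 81.6 normalized counts in CAF_CM and 125, 118 and 115 in control libraries (adjusted p = 0.00302). Slc43a2 had 884, 1059.6 and 991 normalized counts in CAF_CM and 1060.5, 1102 and 1089.6 in control libraries, without overlap but short of the threshold (log2 fold change -0.15, SE 0.07, adjusted p = 0.108). It passed without CAF_CM replicate 2 (adjusted p = 0.0194), with the GC and length correction (adjusted p = 0.00145) and with library totals (adjusted p = 0.0476). Slc43a3, which carries purine bases rather than amino acids, had 14 reads over the CAF_CM and 24 over the control libraries and was not tested.

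Of the sodium-coupled glutamine carriers, Slc1a5, Slc38a3 and Slc38a5 fell and Slc38a1 rose. Slc1a5 (ASCT2), the exchanger through which many tumour cells take up glutamine, fell 1.40-fold, with 1033, 1007 and 998 normalized counts in CAF_CM and 1444, 1414 and 1406 in control libraries (log2 fold change -0.49, SE 0.05, adjusted p = 6.76e-05). The groups were far apart relative to the spread within them. Slc38a3 (SNAT3), a system N carrier that moves glutamine in either direction, fell to 3855, 3989 and 3613 normalized counts in CAF_CM libraries, against 4851, 4886 and 4671 in control libraries (log2 fold change -0.33, SE 0.05, adjusted p = 5.87e-04). Its relative Slc38a5 (SNAT5) had the largest fall of the family, 2.28-fold, with 14.4, 17.6 and 15.2 normalized counts in CAF_CM and 36.6, 36.7 and 37.7 in control libraries (adjusted p = 0.00125). Slc38a1 (SNAT1), a system A carrier that loads cells with glutamine, rose 1.119-fold, with 8017, 8211 and 8683 normalized counts in CAF_CM and 7194, 7506 and 7559 in control libraries (adjusted p = 0.0240). With the GC and length correction its log2 fold change was 0.03 in place of 0.16 (adjusted p = 0.667). The ratio of Slc38a1 to Slc38a3 counts was 2.18 ± 0.193 in CAF_CM and 1.55 ± 0.0680 in control libraries. Slc38a2 (SNAT2), the system A carrier that cells induce when amino acids are scarce, was the most abundant gene of the family and had 9155, 9325 and 9160.2 normalized counts in CAF_CM and 9379, 9574 and 9279 in control libraries (log2 fold change -0.03, 95% interval -0.13 to 0.06, adjusted p = 0.629). With the GC and length correction Slc38a2 passed as lower (-0.16, adjusted p = 0.0149).

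Slc1a4 (ASCT1), a carrier of alanine, serine and cysteine, had 689.9, 564 and 731 normalized counts in CAF_CM and 541, 567 and 599.8 in control libraries. Its CAF_CM replicate 2 lay within the control range and the other CAF_CM libraries above it (log2 fold change 0.21, SE 0.09, adjusted p = 0.1004), and without that library the gene was higher past the threshold (0.32, adjusted p = 0.00356). The glutamate carriers Slc1a1 (85.7 ± 3.89 normalized counts in CAF_CM, 77.7 ± 7.23 in control libraries) and Slc1a2 (204 ± 36.5 and 162 ± 13.3, in the same order) did not pass the test (adjusted p = 0.432 and 0.0854). Without CAF_CM replicate 1, Slc1a2 was higher past the threshold (0.47, adjusted p = 0.00426). The replicate number as a block also made it pass (adjusted p = 0.0386).

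Of the carriers placed at the lysosome, Slc38a7, which releases glutamine from it, fell to 521, 568 and 669 normalized counts in CAF_CM libraries, against 771, 695 and 793 in control libraries (log2 fold change -0.37, SE 0.09, adjusted p = 0.00943). The call was lost without control replicate 3 (adjusted p = 0.0506). Slc38a9, the arginine sensor that signals to mTORC1, had 188, 227 and 171 normalized counts in CAF_CM and 226, 219 and 223 in control libraries (log2 fold change -0.20, SE 0.11, adjusted p = 0.188). CAF_CM replicate 2 was just above the control libraries and the other CAF_CM libraries below them. Slc38a9 passed as lower without replicate 2 (-0.31, adjusted p = 0.0218) and with the GC and length correction (-0.38, adjusted p = 0.0150). The proton-coupled carriers Slc36a1 (1299.7 ± 63.9 normalized counts in CAF_CM, 1372 ± 32.0 in control libraries, adjusted p = 0.290) and Slc36a4 (754 ± 97.0 and 703 ± 50.7, in the same order, adjusted p = 0.446) did not pass. In the rest of the Slc38a genes, Slc38a6 fell to 168, 175 and 171 normalized counts in CAF_CM libraries, against 229, 249.9 and 221 in control libraries (adjusted p = 0.00345), and Slc38a10 had 3388 ± 326 in CAF_CM and 3253 ± 96.2 in control libraries (adjusted p = 0.557).

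Of 9 Slc6a genes tested, 2 fell and none rose; the falls are 22.2% of them, near the 16.1% of all genes tested. Slc6a4, the serotonin transporter, fell 1.43-fold, with 312, 304 and 318 normalized counts in CAF_CM and 452, 424 and 458 in control libraries (log2 fold change -0.51, SE 0.07, adjusted p = 3.54e-04). Slc6a11 (GAT3), a carrier of the neurotransmitter GABA, fell 1.34-fold, with 188, 193 and 159 normalized counts in CAF_CM and 219.6, 262 and 241 in control libraries (adjusted p = 0.0112), a call lost without control replicate 2 (adjusted p = 0.0650). Both genes were lower in every CAF_CM library. Slc6a13 (GAT2), another GABA carrier, had 32.9, 28.4 and 18.0 normalized counts in CAF_CM and 25.04, 9.18 and 8.37 in control libraries (log2 fold change 0.98, SE 0.39, adjusted p = 0.0716). Control replicate 1 was well above the other control libraries for Slc6a13, and without it the gene was higher past the threshold (log2 fold change 1.45, adjusted p = 0.0128). That run left out the only control value within the CAF_CM range. The control values left, 9.18 and 8.37, were below the filter level, so the gene stayed in through the CAF_CM libraries alone. This pass is therefore no separate support for a rise. Slc6a13 also passed with the replicate number as a block (adjusted p = 0.0193) and with the GC and length correction (adjusted p = 0.0338).

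The most abundant Slc6a genes did not pass the main test. Slc6a6, the taurine transporter and the highest of the subfamily, had 2432, 3419 and 2798 normalized counts in CAF_CM and 2760.5, 2918 and 2956 in control libraries (log2 fold change -0.01, 95% interval -0.22 to 0.20, adjusted p = 0.942), with CAF_CM replicate 2 the highest and CAF_CM replicate 1 the lowest of all 6. Its mean was slightly higher in CAF_CM, so mean and log2 fold change differ in sign. Slc6a8, the creatine transporter, had 1618 ± 43.8 normalized counts in CAF_CM and 1742 ± 58.0 in control libraries, without overlap (adjusted p = 0.126). It passed as lower without CAF_CM replicate 1 (adjusted p = 0.0412) and with library totals (0.0337). Slc6a9, the glycine transporter GlyT1, also showed no overlap, with 383 ± 11.5 in CAF_CM and 414 ± 9.44 in control libraries (adjusted p = 0.233). The neutral amino acid carriers Slc6a15 (528 ± 22.1 in CAF_CM, 551 ± 35.7 in control) and Slc6a17 (243 ± 5.04 and 244 ± 23.4, in the same order) overlapped between the groups (adjusted p = 0.548 and 0.965).

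The 9 genes that were not tested had between 10 and 45 reads over all 6 libraries. They are Slc1a3, Slc36a2, Slc38a8, Slc3a1, Slc43a3, Slc6a5, Slc6a7, Slc7a10 and Slc7a15. Slc3a1, the heavy chain of kidney and gut, had 0, 1 and 0 reads in CAF_CM and 3, 5 and 2 in control libraries. Slc7a10 (Asc-1), a light chain for small neutral amino acids, had 10, 4 and 4 reads in CAF_CM and 1, 1 and 2 in control libraries. With no filter on low values these 2 passed the threshold in opposite directions (adjusted p = 0.0437 and 0.0466), on these few reads.

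Of 9 carriers tested that ATF4 is known to induce, Slc7a1, Slc7a5 and Slc7a11 rose, Slc1a5, Slc3a2 and Slc7a3 fell, and Slc1a4, Slc38a2 and Slc6a9 did not pass, with a median log2 fold change of -0.03. That is 33.3% in each direction, against 18.3% higher and 16.1% lower over all genes tested. With library totals, or without CAF_CM replicate 3 or any 1 control library, 1 of them rose. Of 25 ATF4 response genes outside the transporters, 12 rose (48%, against 18.3% of all genes tested) and 2 fell (8%, against 16.1%). Their median log2 fold change was 0.18, against 0.0046 over all genes tested. Leaving out any 1 control library gave 8 rises. The rises were led by Cebpg, a partner of ATF4 on DNA (1885 normalized counts in CAF_CM, 1333 in control libraries, log2 fold change 0.50, adjusted p = 5.85e-05), the proline synthesis gene Pycr1 (487 and 299, in the same order, 0.70, adjusted p = 3.68e-04) and the serine synthesis gene Psat1 (4427 and 3023, 0.54, adjusted p = 3.68e-04). The stress genes Atf3 and Chac1 fell (-0.46 and -0.45, adjusted p = 0.0106 and 0.0265), and Atf4 itself had a log2 fold change of 0.18 (adjusted p = 0.0583).

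**Figure D4:**
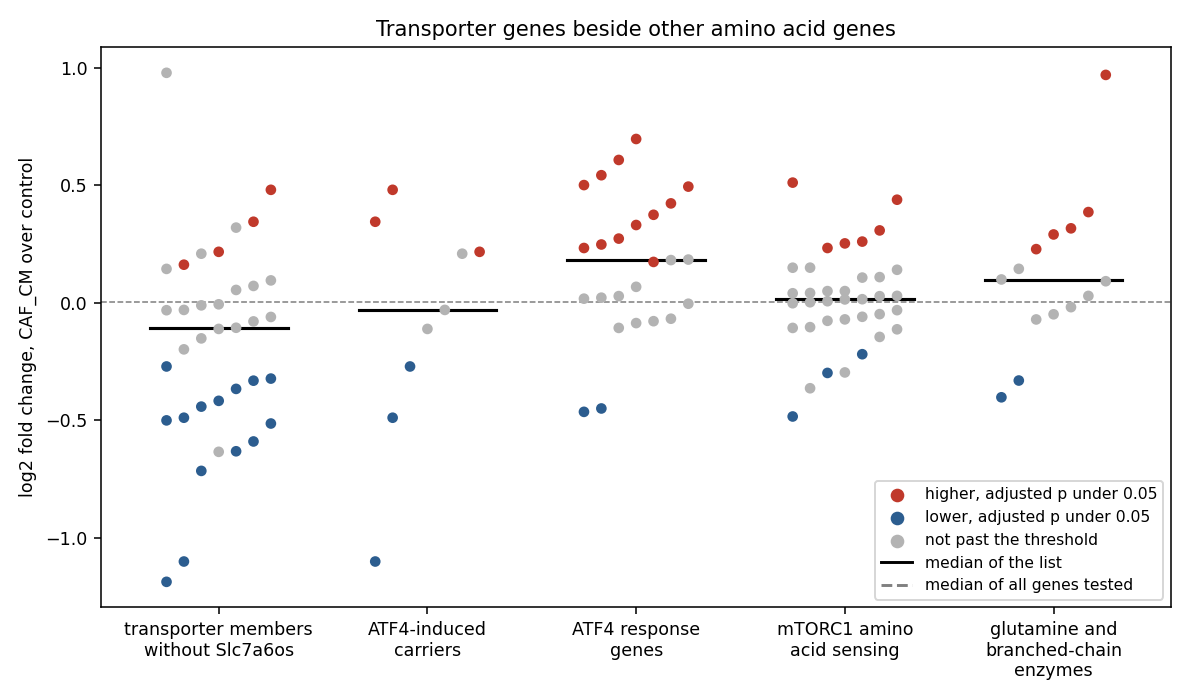
Log2 fold change of CAF_CM over control of each tested gene in 5 lists (points, coloured by call), with the median of each list as a bar and that of all genes tested as a dashed line. The transporter genes spread to both sides with a median below the line, the ATF4-induced carriers lie on both sides of it, and most ATF4 response genes lie above it.

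ATF4 binds with C/EBP factors to a composite element whose core letters are TGATGNAA. RefSeq promoter windows, from 250 bases before to 50 after a start (300 bases, GRCm38.p6), matched 32 of the 46 genes, with 46 windows. Slc7a5, Slc38a1, Slc1a5, Slc38a3, Slc7a2, Slc7a3 and Slc7a4 were among the genes without a window. The letters were therefore not searched in them. The letters were searched on both strands, without regard to overlap with other motifs, and were present in 3.97% of all 32851 windows. Among these genes they were in 4 of the 46 windows, which belong to Slc7a11, Slc1a4 and Slc7a7. The Slc7a7 windows with the letters overlap and share a match, so the 4 are not separate finds. Of the carriers that ATF4 is known to induce, Slc7a1, Slc3a2, Slc38a2 and Slc6a9 had windows but no match. A match is a description of the letters and not a measured site. For each of these 3 genes 1 window is shown, because the genes moved differently: Slc7a11 rose, Slc1a4 did not pass and Slc7a7 fell. Each is written 5′ to 3′ on the strand of the gene, which is the minus strand in all 3, with the matches in capitals. The Slc7a11 window lies at chr3:50443564-50443863, that of Slc1a4 at chr11:20332664-20332963 and that of Slc7a7 at chr14:54417895-54418194. Slc7a11 holds 2 matches in opposite orientation, Slc1a4 holds 1 on the reverse strand close to the start, and this Slc7a7 window, 1 of 5 for that gene, holds 2 in the forward orientation.
Slc7a11: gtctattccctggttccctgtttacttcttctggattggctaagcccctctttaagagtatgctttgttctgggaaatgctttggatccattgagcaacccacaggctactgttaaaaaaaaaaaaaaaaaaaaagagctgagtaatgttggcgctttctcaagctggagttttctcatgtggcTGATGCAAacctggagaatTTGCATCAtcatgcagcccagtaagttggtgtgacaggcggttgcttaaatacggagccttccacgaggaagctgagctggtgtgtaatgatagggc
Slc1a4: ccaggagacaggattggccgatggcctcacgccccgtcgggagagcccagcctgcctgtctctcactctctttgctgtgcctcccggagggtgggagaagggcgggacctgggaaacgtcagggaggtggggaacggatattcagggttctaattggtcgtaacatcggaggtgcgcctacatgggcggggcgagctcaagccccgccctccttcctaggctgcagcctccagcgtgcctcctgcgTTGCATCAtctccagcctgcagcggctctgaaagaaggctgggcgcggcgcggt
Slc7a7: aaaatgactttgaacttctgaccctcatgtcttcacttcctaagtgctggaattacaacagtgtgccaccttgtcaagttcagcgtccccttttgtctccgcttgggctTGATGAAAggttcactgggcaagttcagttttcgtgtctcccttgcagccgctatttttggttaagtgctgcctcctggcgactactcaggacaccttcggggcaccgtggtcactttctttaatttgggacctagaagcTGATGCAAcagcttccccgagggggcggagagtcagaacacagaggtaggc

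Of 36 genes of amino acid sensing upstream of mTORC1 tested, 27 did not pass, 6 rose (16.7%, near the 18.3% of all genes tested) and 3 fell (8.33%, against 16.1%), with a median log2 fold change of 0.0146. The rises numbered 3 with library totals and 2 without CAF_CM replicate 3, control replicate 1 or control replicate 3. The 3 of lowest adjusted p were Nprl3, a subunit of the inhibitory GATOR1 complex (-0.48, adjusted p = 2.32e-04), Fnip2, a partner of folliculin (0.51, adjusted p = 5.53e-04), and Wdr24, a subunit of GATOR2 (-0.30, adjusted p = 0.00157). The GATOR1 genes did not move together: Depdc5 was higher (0.31, adjusted p = 0.0167) and Nprl2 did not pass (-0.15, adjusted p = 0.111). Of 14 genes for enzymes of glutamine, glutamate and branched-chain amino acids, 5 rose (35.7%, against 18.3% of all genes tested) and 2 fell (14.3%, near the 16.1% of all). Bcat1, the cytosolic enzyme that transfers the amino group of leucine, isoleucine and valine, rose 1.96-fold to 1421 normalized counts in CAF_CM, against 719 in control libraries (adjusted p = 5.85e-05). Got1, the cytosolic aspartate aminotransferase, rose (log2 fold change 0.39, adjusted p = 1.66e-04). Among 6 further carriers tested that lie outside the named subfamilies, the lysosomal carriers of cationic amino acids, Slc66a1 (-0.41, adjusted p = 0.00138), and of cystine, Ctns (-0.21, adjusted p = 0.0307), fell, and none rose. The 2 falls are 33.3% of the 6, against 16.1% lower over all genes tested. Leaving out any 1 control library, or correcting for GC content and length, left 1 fall, and library totals gave 3. These values are set beside those of the transporters as a description of the same libraries.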

How the data were processed

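Total RNA of 6 libraries was sequenced after a TruSeq preparation, per the labels' protocols. FastQC, DESeq2 and hg19, a human build, appear in the submitters' processing notes, while the table has mouse symbols. Aligner, counter and mouse build are not given in the sources used here. The deposited table holds a signal that is never negative, gene counts that the authors divided by 1 factor per library. In each library 100% of values are whole multiples, within 0.001, of a step between 0.949 and 1.05, which gave back the reads. The lowest row total is 10 reads, and 168 rows without a symbol (0.153% to 0.261% of reads) were left out.

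The main test was limma 3.58.1 (R 4.3.3) with a variance trend on log2(value + 1), over genes with at least 10 normalized counts in at least 3 libraries, with Benjamini-Hochberg adjustment over all genes tested, two-sided, at 0.05. Fold changes on this scale are understated for low genes. The procedure was tested on simulated data. Levels per kb divide by the longest GENCODE M21 transcript of the symbol. Alternatives were pseudocounts of 0.5 and 5, no filter, 1 CPM, TMM scaling, library totals, edgeR 4.0.16 on recovered reads (2888 higher and 2682 lower), edgeR with DESeq2 size factors, DESeq2 1.42.0, separate group weights, correction for GC content and length (14985 genes), a block for the replicate number, and leaving out every library once.

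The members, roles and lists were chosen with earlier results of these data known, and the motif after the values were seen. Named with every library or mean ± SD were all called members, the highest per kb of each subfamily and 11 well-known carriers. The other members were named to account for the family, many of them with such values too. Up to 3 called genes of each other list were named by lowest adjusted p. Atf3, Chac1, Atf4, Depdc5 and Nprl2 were named after their values were seen. Some genes are counted but not reported by name here.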

Additional observations from a re-analysis of the deposited data

How the results depend on the processing

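Over 18 alternatives, a tally was made for 24 members, the called ones and Slc36a1, Slc38a2, Slc38a9, Slc43a2 and Slc6a6. The other members were not in it, though some gained a call under an alternative, such as Slc1a4, Slc1a2, Slc6a13 and Slc6a8. The 24 members gave 432 comparisons, and 398 kept direction and side of the threshold. Of the rest, 25 lost a call, 6 gained one and 3 changed sign. The sign changes were all in Slc6a6, which was never called (log2 fold change -0.01 as reported, between -0.14 and 0.10 with a library left out, of which 0.00339 without CAF_CM replicate 3 and 0.00848 without control replicate 3). The number of members that rose was 4 as reported, 1 with library totals and between 1 and 5 with a library left out, and the number that fell was between 12 and 17 with a library left out. Over all genes, 1865 to 3497 were higher and 1612 to 2945 lower with a library left out, the lowest counts coming without control replicate 1. Deviations of libraries with the same replicate number correlated at 0.0703, 0.0291 and 0.0305 across genes, so the numbers were not taken as pairs. With the replicate block, 3166 genes were higher and 2755 lower, and among the members Slc1a2 and Slc6a13 passed in addition. Reads per library limit what can be said of the 9 genes not tested, where counting error alone is large.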
